A study of Mus musculus with 4 samples.

Results

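The genes described here carry a message from promoter to protein: they encode parts of the transcription machinery, the spliceosome, the factors that bind, export and destroy RNA, and the apparatus of translation. They were chosen by symbol from a list of 30 genes that lie in 3 chromosome stretches of the deposited table, and all 30 were found among its 36186 rows. The RNA came from the kidney-ureter junction of mice at E13.5, of SV/129 embryos of the genotype the labels call PTC-/-MM. In these embryos the hedgehog receptor Ptch1 is missing from the metanephric mesenchyme, the embryonic tissue that condenses around the ureteric bud. The Cre driver and the number of embryos behind a library are not stated. An antibody to PTC2, itself a hedgehog receptor, split the cells into PTC2+ and PTC2- populations of 2 libraries each. All 4 libraries come from embryos of that genotype, which does not show that every sorted cell lacks Ptch1, and normal embryos are not analysed here. Whether both libraries of 1 population stem from separate litters is not given in the labels, so p-values measure the spread between these libraries, which may be technical.

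RNA polymerases copy a gene with the help of general transcription factors. The spliceosome then removes introns, and cap-binding and export factors take the message to the cytoplasm. There initiation factors recruit ribosomes to it, while deadenylation and nonsense-mediated decay remove it. These are housekeeping functions that every dividing embryonic cell uses, in the nephron-forming mesenchyme as elsewhere, and single factors such as RNA-binding proteins can still differ in amount between cell types.

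The values are in normalized RPKM (NRPKM), that is, reads per gene length and library size, scaled further by the authors in a way that is not stated, so a comparison of levels between genes rests on the unit's name. The values sum to 283806 to 288752 NRPKM per library, and the number of reads behind them is not known. Names and values do not go together over most of the table: of 76 rows named as cytosolic ribosomal proteins outside the 3 stretches, 27 were at 0 in all 4 libraries and 13 (17.1%) averaged 20 NRPKM or more. The account therefore keeps to the stretches on chromosome 16 (Naa60 to Mrps6), chromosome 19 (Ighmbp2 to Pygm) and chromosome 8 (Insr to Agpat5), which hold 1303 rows in the table's own order, and translation genes elsewhere are not described. The gene for the sorted PTC2 protein lies outside them, so the sort could not be checked by it. Markers inside the stretches did separate the populations, but they were chosen with earlier results of these data known. Their separation is therefore no check of the sort. At an adjusted p under 0.05, 2.44% of all rows tested were higher in PTC2+ cells and 0.483% lower (5.77% and 0.422% of stretch rows). Of 8 myeloid markers 7 were higher in PTC2+ cells at an adjusted p under 0.05 and 0 were lower (Cd80 was the other), and they summed to 675 to 773 NRPKM in the PTC2+ libraries, against 26.8 to 32.2 NRPKM in the PTC2- libraries, where 3 of them (Cd86, Cd200r1 and Stfa2l1) were at 0. Of 4 mesenchymal and stromal markers 2 (Snai2 and Cd248) were lower and 0 higher, with sums of 285 to 333 NRPKM in the PTC2+ libraries and 689 to 743 NRPKM in the PTC2- libraries. The collecting-duct claudin Cldn8 was higher in PTC2+ cells. The 4 endothelial markers summed to 480 to 532 NRPKM in the PTC2+ libraries and 509 to 557 NRPKM in the PTC2- libraries, and none of these 4 changed, nor did Myh11 of smooth muscle or Tfrc and Gp1bb of erythroid cells and platelets, while the urothelial Upk1b was under the filter with at most 0.971 NRPKM. The part these cell types have in the values below was not tested, and in bulk RNA fewer cells of a type and less RNA per cell cannot be told apart.

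Every one of the 30 genes was expressed in all 4 libraries, and none passed the test between the populations. The lowest single value was 12.1 NRPKM (Ighmbp2 in PTC2- replicate 1), and the gene means ran from 20.9 to 1249 NRPKM with a median of 100.1 NRPKM, against a median of 34.6 NRPKM for the 711 stretch rows tested. In limma on log2(NRPKM + 1), with p adjusted over the 11807 rows tested, 0 of 30 genes changed, against 2.92% of all rows (2.44% higher and 0.483% lower in PTC2+ cells) and 6.19% of stretch rows (5.77% higher and 0.422% lower), and their adjusted p lay between 0.126 and 0.996. At an unadjusted p under 0.05 there were 5 of 30 genes, 2 higher and 3 lower in PTC2+ cells, against 19.8% of all rows (11.9% higher and 7.90% lower) and 27.3% of stretch rows (17.4% higher and 9.85% lower). The populations did not overlap for 17 of 30 genes, 6 higher and 11 lower, against 49.5% of all rows (24.6% higher and 24.9% lower) and 59.6% of stretch rows (30.2% higher and 29.4% lower). Both shares lie near those of the table, so neither is a result about these genes. The median log2 difference, PTC2+ minus PTC2-, was -0.14 over the 30 genes, -0.03 over the stretch rows and -0.03 over all rows tested. It rests on single libraries: it was -0.034 without PTC2+ replicate 2 and -0.053 without PTC2- replicate 1.

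**Figure D1:**
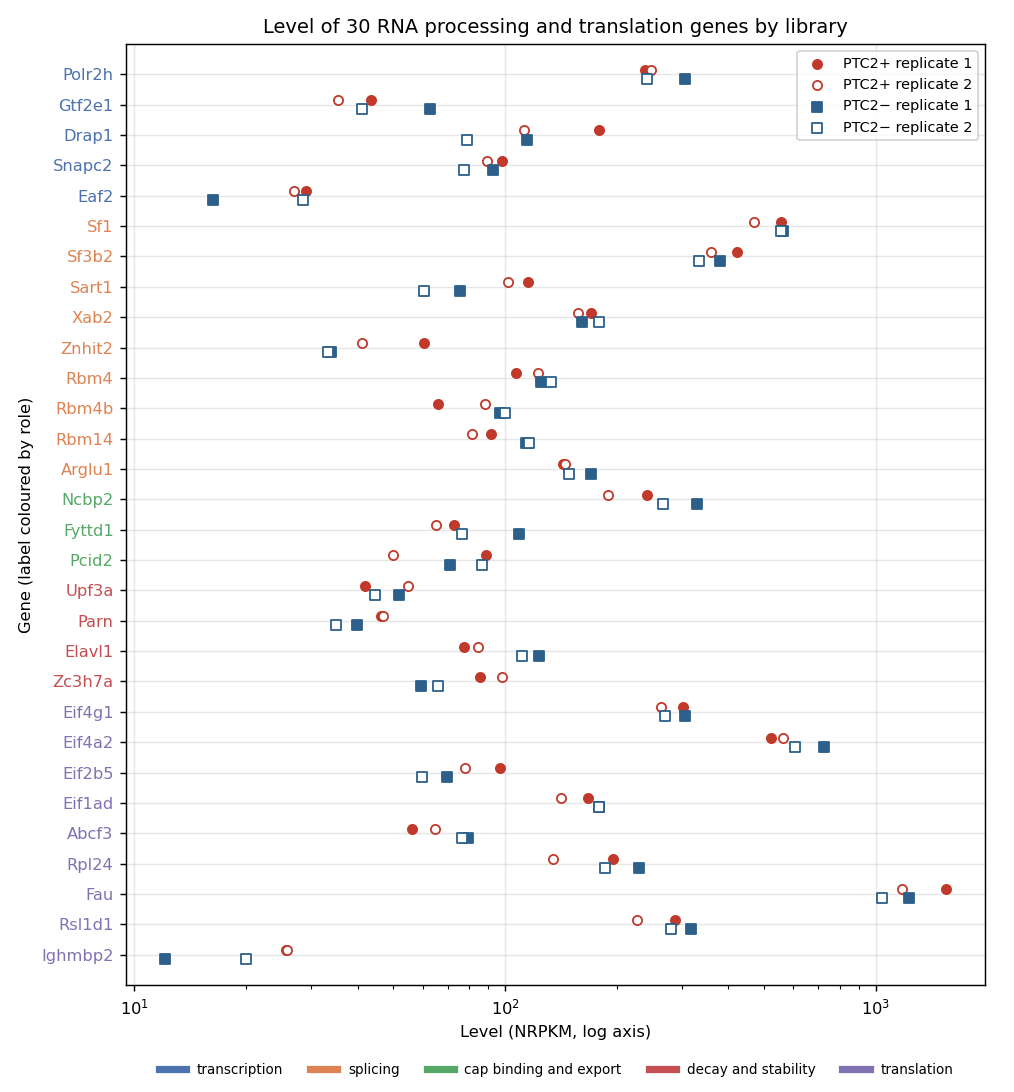
Level of each of the 30 genes (NRPKM, log axis) in the PTC2+ libraries (red circles) and the PTC2- libraries (blue squares), with replicate 1 filled and replicate 2 open. Levels span 12.1 NRPKM for Ighmbp2 to 1552 NRPKM for Fau, and for most genes the 4 points lie close together beside the distance between genes.

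The intervals give the range of each difference. For 24 of the 30 genes the 95% interval lay within a 2-fold change in either direction. This held for 323 of the 711 stretch rows (45.4%) and 58.9% of the 548 stretch rows that averaged 10 NRPKM or more. Such shares depend on the width of the intervals as well. The median SE was 0.17 for the 30 genes, 0.24 for the 711 rows and 0.20 for the 548. Their median levels were 100.1, 34.6 and 52.4 NRPKM, and the part of level in these shares was not tested. The 6 other genes of the 30 were Gtf2e1, Drap1, Eaf2, Sart1, Znhit2 and Ighmbp2, for which a 2-fold difference is not excluded by the interval. None of the 30 estimates exceeded 2-fold with all libraries in, whereas 17.4% of the stretch rows did, and 66 of the 548 that averaged 10 NRPKM or more. Without PTC2- replicate 2 Ighmbp2 passed it, at a log2 difference of 1.03. The median absolute log2 difference between replicates was 0.20 in the PTC2+ pair and 0.20 in the PTC2- pair. Between populations it was 0.33, against 0.37 over the 711 stretch rows and 0.31 over the 548 that averaged 10 NRPKM or more. By this measure the difference of the 30 genes was not smaller than that of the 548 rows. For 11 of 30 genes the difference between populations exceeded both replicate differences, as it did for 337 of 711 stretch rows.

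**Figure D2:**
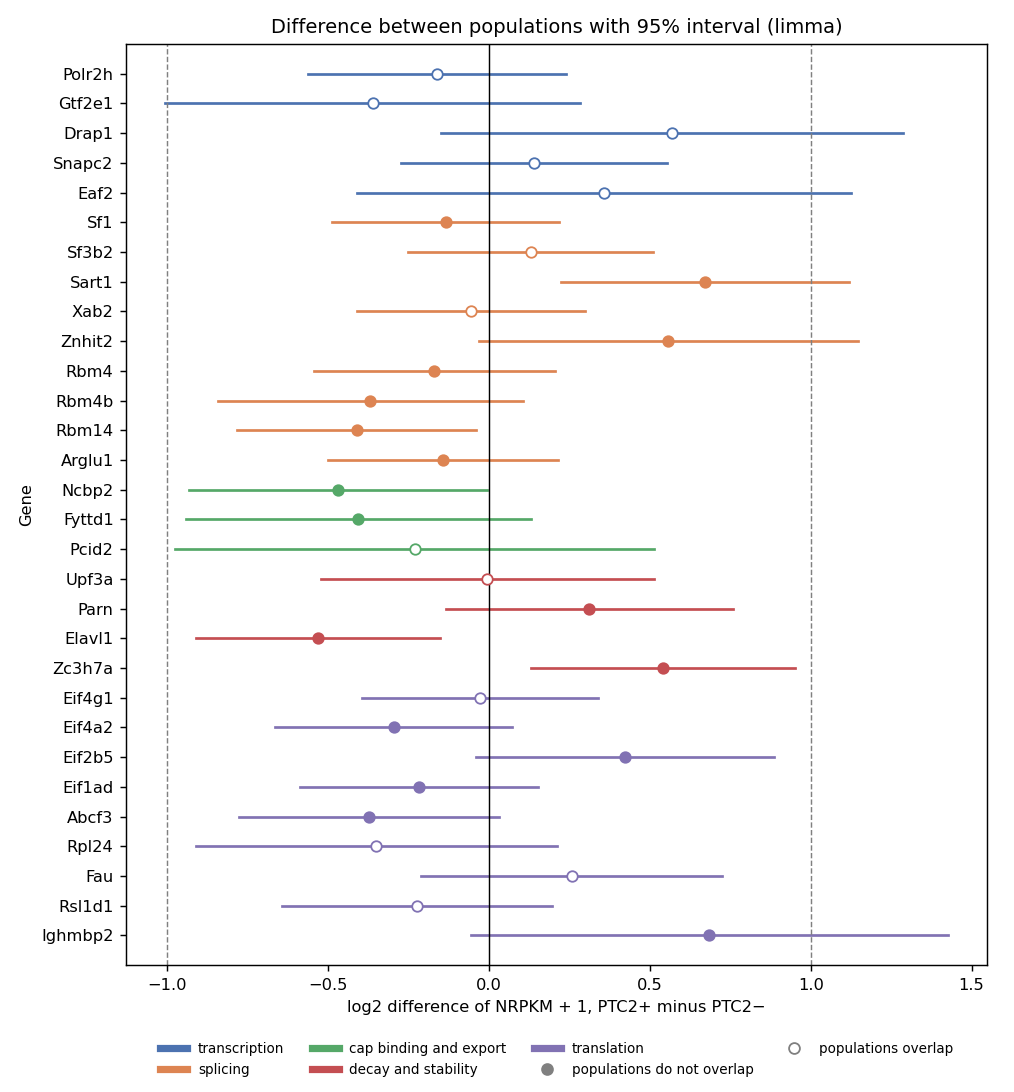
Log2 difference of NRPKM + 1, PTC2+ minus PTC2-, of the 30 genes with its 95% interval, coloured by role; filled points mark genes whose populations do not overlap. No estimate passes the dashed lines at a 2-fold change, and the intervals of Sart1, Elavl1, Zc3h7a, Rbm14 and Ncbp2 leave out 0 before any adjustment.

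Among the transcription genes, the populations overlapped for all 5. Polr2h encodes a small subunit shared by the nuclear RNA polymerases. It reached 239 and 247 NRPKM in the PTC2+ libraries, against 306 and 242 NRPKM in the PTC2- libraries. Only PTC2- replicate 1 stood apart, and the difference was -0.16 (95% interval -0.56 to 0.24). Gtf2e1, a subunit of TFIIE, which loads the helicase at the promoter, had 43.6 and 35.4 NRPKM in PTC2+, against 62.6 and 41.1 NRPKM in PTC2- cells. Here too PTC2- replicate 1 was the highest library, and the other PTC2- library lay between the PTC2+ values. Drap1, a subunit of the corepressor NC2 that blocks assembly of the transcription complex, had 179 and 112 NRPKM in PTC2+, against 115 and 79.0 NRPKM in PTC2- cells. Its difference of 0.57 (interval -0.15 to 1.29) came with replicates of either population 0.67 and 0.53 apart on the same log2 scale and ranged from 0.24 to 0.90 when 1 PTC2+ library was left out, and was 0.30 without PTC2- replicate 2. Snapc2, of the complex that starts small nuclear RNA genes, averaged 93.8 ± 5.88 NRPKM in PTC2+ and 85.2 ± 10.7 NRPKM in PTC2- cells (SD, n = 2 each). Eaf2, a partner of the elongation factor ELL, had 29.0 and 26.9 NRPKM in PTC2+ libraries, against 16.3 and 28.6 NRPKM in PTC2- libraries, so its difference of 0.36 rests on PTC2- replicate 1 and was -0.03 without it.

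None of the splicing genes passed. Sf1, which recognises the branch point, had 555 and 470 NRPKM in PTC2+ libraries, against 563 and 556 NRPKM in PTC2- libraries. The PTC2+ values lay below the PTC2- ones, by a log2 difference of -0.13 (interval -0.49 to 0.22). Sf3b2, of the SF3b complex of the U2 particle, averaged 391 ± 45.8 NRPKM in PTC2+ and 356 ± 33.1 NRPKM in PTC2- cells (SD, n = 2 each), with overlap. Xab2, a spliceosome component that also acts in transcription-coupled repair, had 171 and 157 NRPKM in PTC2+, against 162 and 179 NRPKM in PTC2- libraries, a difference of -0.06 (interval -0.41 to 0.30). Arglu1, an arginine- and glutamate-rich splicing regulator, averaged 144 ± 0.994 NRPKM in PTC2+ and 160 ± 15.5 NRPKM in PTC2- cells (SD, n = 2 each).

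Sart1 had the lowest p of the 30. It encodes a protein of the U4/U6.U5 particle needed to build the active spliceosome. It reached 115 and 102 NRPKM in the PTC2+ libraries, against 75.7 and 60.4 NRPKM in the PTC2- libraries. Both PTC2+ libraries lay above both PTC2- libraries, by a log2 difference of 0.67 (SE 0.18), which did not pass (limma adjusted p = 0.126, and 0.0726 when adjusted within the stretches). Znhit2, which helps to assemble the U5 particle, had 60.6 and 41.1 NRPKM in PTC2+, against 33.8 and 33.4 NRPKM in PTC2- libraries. The PTC2- values were almost equal and the PTC2+ values 0.55 apart (log2), and the difference of 0.56 did not pass (limma adjusted p = 0.274) and was 0.28 without PTC2+ replicate 1.

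The RNA-recognition-motif genes Rbm4, Rbm4b and Rbm14 form a cluster on chromosome 19, and PTC2+ values lay below PTC2- values for each of them. Rbm4 and Rbm4b encode related regulators of alternative splicing, and Rbm14 a coactivator found in paraspeckles. Rbm14 had 91.6 and 81.4 NRPKM in PTC2+ libraries, against 114 and 116 NRPKM in PTC2- libraries (log2 difference -0.41, SE 0.15, limma adjusted p = 0.213). Rbm4b had 65.8 and 88.1 NRPKM in PTC2+, against 96.8 and 100.2 NRPKM in PTC2- libraries. Rbm4 had 107 and 123 NRPKM in PTC2+, against 125 and 133 NRPKM in PTC2- libraries, so that PTC2+ replicate 2 lay just under PTC2- replicate 1. The 3 rows may share reads. In the GENCODE M21 annotation of GRCm38 the readthrough gene Gm21992 shares 60.5% of the exon bases of Rbm4 and 18.6% of those of Rbm14, and the sources used here do not give how the authors' counting divided such reads.

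Of the cap-binding and export factors, all 3 had lower means in PTC2+ cells and 0 passed. Ncbp2 encodes the small subunit of the nuclear cap-binding complex, which holds the methylated cap. It reached 242 and 190 NRPKM in the PTC2+ libraries, against 330 and 267 NRPKM in the PTC2- libraries. The ranges do not overlap, but replicates differed by 0.35 and 0.30 (log2) within the populations beside a difference of -0.47 between them (SE 0.19, limma adjusted p = 0.247), which was -0.30 without PTC2+ replicate 2. Fyttd1, an adaptor that hands messages to the export receptor, had 72.7 and 65.0 NRPKM in PTC2+, against 109 and 76.5 NRPKM in PTC2- libraries. Pcid2, of the TREX-2 export complex, had 89.0 and 49.9 NRPKM in PTC2+, against 70.9 and 86.7 NRPKM in PTC2- libraries. Its PTC2+ replicates spanned both PTC2- values, and the difference of -0.23 was 0.18 without PTC2+ replicate 2.

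The genes of RNA decay and stability pointed both ways. Elavl1 encodes HuR, which binds AU-rich elements and stabilises messages. It reached 77.4 and 84.7 NRPKM in the PTC2+ libraries, against 124 and 111 NRPKM in the PTC2- libraries. Both PTC2+ libraries lay below both PTC2- libraries, with a log2 difference of -0.53 (SE 0.15) that did not pass (limma adjusted p = 0.141). Zc3h7a, a CCCH zinc finger protein that binds RNA, lay the other way, with 85.4 and 98.1 NRPKM in PTC2+ libraries, against 59.5 and 66.0 NRPKM in PTC2- libraries. Its log2 difference was 0.54 (SE 0.16, limma adjusted p = 0.161). Parn, a deadenylase that trims poly(A) tails, averaged 46.6 ± 0.304 NRPKM in PTC2+ and 37.5 ± 3.50 NRPKM in PTC2- cells (SD, n = 2 each). Upf3a, of the nonsense-mediated decay pathway, had 41.9 and 54.7 NRPKM in PTC2+, against 51.7 and 44.6 NRPKM in PTC2- libraries, so each population held 1 high and 1 low library and the means were almost equal (log2 difference -0.0045, interval -0.52 to 0.51).

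The translation genes include the most abundant of the 30. Fau encodes a ubiquitin-like protein fused to ribosomal protein S30 of the small subunit. It reached 1552 and 1175 NRPKM in the PTC2+ libraries, against 1227 and 1040 NRPKM in the PTC2- libraries, and by its mean it ranked 3 among the 711 stretch rows tested. The ranges overlap, and the difference was 0.26 (interval -0.21 to 0.72). Rpl24, a protein of the large ribosomal subunit, had a lower mean in PTC2+ cells, with 196 and 134 NRPKM in PTC2+, against 230 and 186 NRPKM in PTC2- libraries (difference -0.35, interval -0.91 to 0.21). With 1 library left out the difference ran from -0.62 to -0.079 for Rpl24 and from 0.057 to 0.46 for Fau, the lower bound of each without PTC2+ replicate 1 and the upper without PTC2+ replicate 2. Neither ribosomal value is free of shared sequence: 51.8% of the 50-base words of the Rpl24 transcripts and 353 of the 1178 of Fau also occur in transcripts of other annotated genes. Only 5 of the 30 genes share 10% or more in this way (Rbm4, Rpl24, Fau, Rbm14 and Eif4a2).

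Of the initiation factors, Eif4g1 was the most even. It encodes the scaffold of eIF4F, the complex that joins the cap to the ribosome. It had 302 and 263 NRPKM in PTC2+ libraries, against 305 and 270 NRPKM in PTC2- libraries, a log2 difference of -0.03 (interval -0.39 to 0.34). Eif4a2, a helicase of the same complex, had 521 and 561 NRPKM in PTC2+, against 726 and 607 NRPKM in PTC2- libraries. The ranges do not overlap, and the difference was -0.30 (interval -0.66 to 0.07). Eif2b5, the catalytic subunit of the exchange factor that recharges eIF2, lay higher in PTC2+ cells, with 96.9 and 77.9 NRPKM, against 69.7 and 59.8 NRPKM in PTC2- cells (limma adjusted p = 0.289). Eif1ad is placed beside the initiation factors only because it is named for its eIF1A-like domain. It averaged 155 ± 18.5 NRPKM in PTC2+ and 179 ± 0.101 NRPKM in PTC2- cells (SD, n = 2 each).

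Abcf3, an ABC protein related to yeast Gcn20, which acts in sensing amino acid shortage there, averaged 60.3 ± 6.05 NRPKM in PTC2+ and 78.2 ± 2.07 NRPKM in PTC2- cells (SD, n = 2 each). The populations did not overlap, and the difference of -0.37 did not pass (limma adjusted p = 0.287). Rsl1d1, a nucleolar protein with a ribosomal L1 domain, averaged 258 ± 42.8 NRPKM in PTC2+ and 299 ± 25.7 NRPKM in PTC2- cells, with overlap. Ighmbp2 encodes a helicase associated with ribosomes whose loss causes a motor neuron disease. It was the least abundant of the 30, with 25.6 and 25.8 NRPKM in PTC2+ libraries, against 12.1 and 20.0 NRPKM in PTC2- libraries. Its difference of 0.68 rests on single libraries: it was 0.34 without PTC2- replicate 1 and 1.03 without PTC2- replicate 2, and its interval ran from -0.06 to 1.42.

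In part of the 30 genes the replicates differed in the same direction in both populations. In 15 of 30 genes the library numbered 1 lay above the library numbered 2 in both populations, among them 6 of the 9 translation genes, and in 4 of 30 it lay below in both. Over the stretch rows tested these numbers were 240 and 135 of 711, or 33.8% above, against 22.6% above and 29.8% below over all rows tested. The median log2 difference, replicate 1 minus replicate 2, was 0.16 in PTC2+ and 0.18 in PTC2- cells over the 30 genes. It was 0.05 and 0.05 over the stretch rows, and -0.06 and -0.02 over all rows tested. In the sample descriptions replicate 1 of both populations carries the same identifying number, and replicate 2 of both carries another. The labels do not say what a number shared between populations marks.

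**Figure D3:**
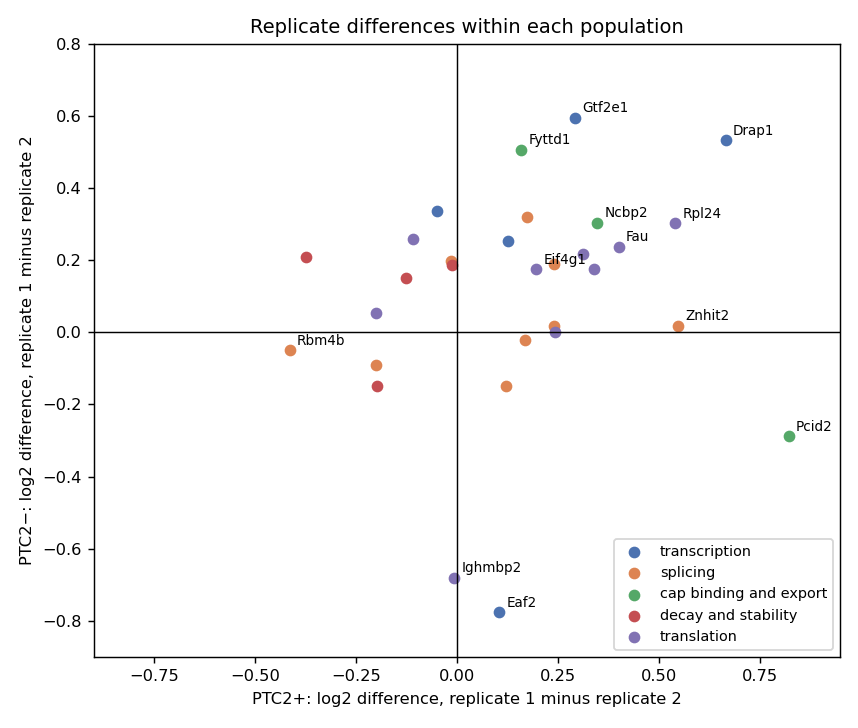
Log2 difference of NRPKM + 1 between replicate 1 and replicate 2 of each of the 30 genes, in PTC2+ cells (horizontal) and PTC2- cells (vertical), coloured by role. Of the 30 points 15 lie in the upper right part, where replicate 1 is higher in both populations, and Pcid2, Eaf2 and Ighmbp2 lie far from the rest.

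The promoters of the 30 genes played no part in their selection. Of the 28 with a promoter window in the RefSeq table of GRCm38.p6 (300 bases around the start), the median G+C content was 62.2%, against 56.3% over 17485 coding genes, and the median number of CG sites was 24.5 against 13. The TATA box letters TATAAA occurred on either strand in 2 of the 28 windows (7.14%), against 13.3% of all, and CCGGAAGT, the letters ETS factors bind, in 3 (10.7%) against 5.29%. A match is a description of these letters and not a bound site. In 9 of the 28 (32.1%) a coding gene on the other strand started within 300 bases upstream, in a back-to-back arrangement found for 6.49% of all coding genes with a window. The share among stretch genes or expressed genes alone was not taken, so the part of location and level in this contrast was not tested.

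These 9 neighbours were set beside the 30 genes after their values were in view. The stretches between the starts of 4 pairs are shown because both transcripts leave from them: the pair with the most abundant gene, the pair with the closest starts, the pair of Elavl1, and the pair whose neighbour lay below in PTC2+ cells at the lowest p. Each is read 5′ to 3′ on the strand of the listed gene. Capitals mark the bases between the starts, and the 10 lower-case bases on the right begin the listed gene's transcript, while those on the left are the complement of the neighbour's first bases. Coordinates are those of GRCm38.p6 in the RefSeq table and not of the build named for the deposited values.
Fau and Mrpl49, chr19:6057746-6057956, plus strand: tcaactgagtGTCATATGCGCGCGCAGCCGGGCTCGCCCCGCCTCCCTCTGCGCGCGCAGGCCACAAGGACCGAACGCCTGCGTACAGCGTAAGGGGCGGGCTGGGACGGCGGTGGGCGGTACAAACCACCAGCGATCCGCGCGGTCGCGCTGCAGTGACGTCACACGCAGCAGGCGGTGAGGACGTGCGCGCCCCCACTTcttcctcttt
Ighmbp2 and Mrpl21, chr19:3283001-3283051, minus strand: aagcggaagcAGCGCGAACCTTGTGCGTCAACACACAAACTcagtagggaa
Elavl1 and Ccl25, chr8:4325091-4325219, minus strand: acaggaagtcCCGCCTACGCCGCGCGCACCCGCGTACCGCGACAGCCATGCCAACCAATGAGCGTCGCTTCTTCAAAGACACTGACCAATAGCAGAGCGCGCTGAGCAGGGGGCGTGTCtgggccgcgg
Eaf2 and Iqcb1, chr16:36828250-36828409, minus strand, from 1 of several annotated starts of Eaf2: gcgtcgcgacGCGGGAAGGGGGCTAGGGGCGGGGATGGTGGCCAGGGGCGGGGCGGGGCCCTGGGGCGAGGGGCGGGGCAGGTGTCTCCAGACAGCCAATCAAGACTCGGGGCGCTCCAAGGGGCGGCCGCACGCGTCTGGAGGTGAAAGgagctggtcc

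In 8 of the 9 pairs the log2 difference had the opposite sign in the gene and its neighbour, against 8 of 15 other back-to-back coding pairs tested in the stretches (53.3%). The count rests on signs that can turn: Xab2 was 0.011 with quantile normalization and 0.0053 when PTC2+ replicate 2 was left out. Eaf2 was -0.030 without PTC2- replicate 1. The signs of the neighbours were not followed under the alternatives, and they too can rest on a single library. Mrpl21 had 169 and 130 NRPKM in PTC2+ libraries, and PTC2- replicate 2, at 135 NRPKM, lay between them. PTC2- replicate 1 of Ccl25 likewise lay between its PTC2+ values. None of the 9 neighbours passed either, and the difference between a gene and its neighbour was not tested. Fau and Mrpl49, a protein of the mitochondrial ribosome, start 192 bases apart. Mrpl49 had 171 and 165 NRPKM in PTC2+ libraries, against 265 and 202 NRPKM in PTC2- libraries (log2 difference -0.46, interval -0.89 to -0.02). Fau thus stood at 9.05 and 7.12 times the level of Mrpl49 in the PTC2+ libraries, against 4.63 and 5.16 times in the PTC2- libraries. Ighmbp2 and Mrpl21, also of the mitochondrial ribosome, start 32 bases apart and share 117 exon bases on opposite strands. Mrpl21 averaged 149 NRPKM in PTC2+ and 172 NRPKM in PTC2- cells, where Ighmbp2 had 25.7 and 16.1 NRPKM. Eaf2 and Iqcb1, a ciliary protein, start 141 bases apart. Iqcb1 stood at 35.5 and 33.8 NRPKM in PTC2+ libraries, against 57.7 and 53.1 NRPKM in PTC2- libraries (log2 difference -0.66, SE 0.17, limma adjusted p = 0.122). Elavl1 and Ccl25, a chemokine, start 110 bases apart and also share 204 exon bases on opposite strands. Ccl25 had 25.2 and 21.9 NRPKM in PTC2+ libraries, against 24.0 and 8.78 NRPKM in PTC2- libraries. The ratio of Elavl1 to Ccl25 was 3.08 and 3.87 in PTC2+ libraries and 5.17 and 12.7 in PTC2- libraries.

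Xab2 lies beside Pet100, an assembly factor of cytochrome oxidase, which had 67.6 and 68.0 NRPKM in PTC2+ libraries, against 42.9 and 41.8 NRPKM in PTC2- libraries (log2 difference 0.67, SE 0.16, limma adjusted p = 0.102). The ratio of Xab2 to Pet100 was 2.53 and 2.31 in PTC2+ and 3.77 and 4.29 in PTC2- libraries. Drap1 and AI837181 differed by 0.57 and -0.50, Gtf2e1 and Rabl3 by -0.36 and 0.30, and Fyttd1 and its neighbour listed as 1700021K19Rik by -0.41 and 0.42. Fyttd1 and this neighbour, named Rubcn in the annotation, share 171 exon bases on opposite strands. With 1 PTC2- library left out Gtf2e1 ran from -0.66 to -0.063 and Fyttd1 from -0.66 to -0.15. Pcid2 and Cul4a had the same sign, with -0.23 and -0.28. Because the double-stranded cDNA libraries do not keep strand, reads from overlapping genes on opposite strands cannot be told apart. In the annotation 15 of the 30 genes share exon bases with a gene on the other strand, most of them few: the largest shares were 30.8% of Rbm4b with an unclassified transcript, 15.3% of Eif1ad with Banf1 and 12.2% of Xab2 with Camsap3.

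**Figure D4:**
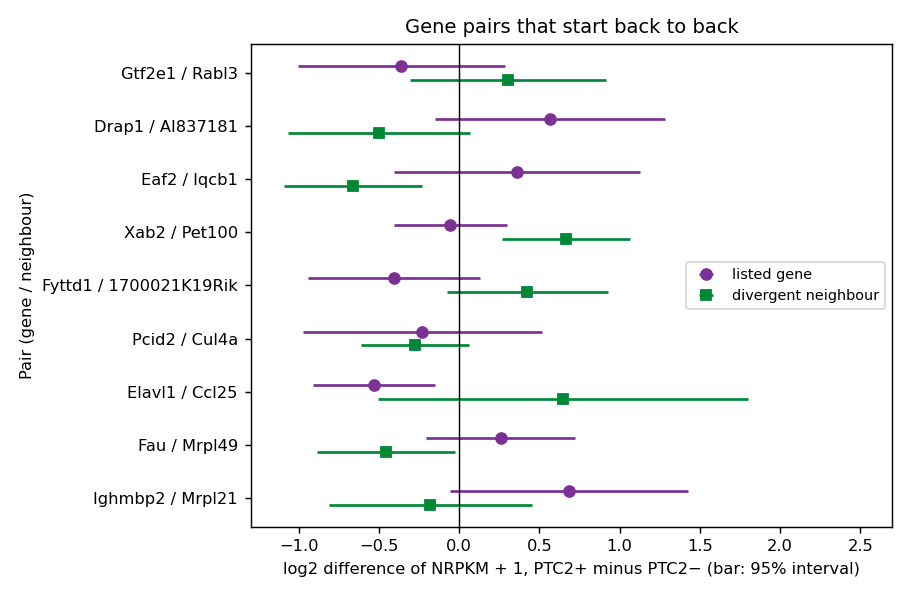
Log2 difference of NRPKM + 1, PTC2+ minus PTC2-, with 95% intervals for 9 of the 30 genes (circles) and the coding genes that start back to back with them (squares). In 8 of the 9 pairs the points lie on opposite sides of 0, while most of the intervals include 0.

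A further list of 31 genes of transcription, RNA processing, tRNA modification and translation in the same stretches gave a similar picture. Of its 30 tested genes 0 changed (limma adjusted p over all rows 0.0699 to 0.958), against 2.92% of all rows and 6.19% of stretch rows called. At an unadjusted p under 0.05 there were 8, 2 higher and 6 lower in PTC2+ cells. The shares beside them were 19.8% of all rows (11.9% higher and 7.90% lower) and 27.3% of stretch rows (17.4% higher and 9.85% lower). Rpl39l, a copy of a large-subunit protein gene, was under the filter, with 0 NRPKM in 3 libraries and 1.08 NRPKM in PTC2+ replicate 2. The median log2 difference of the list was -0.18. The list holds several enzymes of tRNA modification, and they pointed both ways. Qtrtd1, a subunit of the enzyme that puts queuine into tRNA, had 32.8 and 37.5 NRPKM in PTC2+ libraries, against 57.2 and 64.4 NRPKM in PTC2- libraries (limma adjusted p = 0.0974). Trmt10c, a methyltransferase of mitochondrial RNase P, had 49.5 and 39.1 NRPKM in PTC2+, against 84.7 and 64.6 NRPKM in PTC2- libraries. Trmt2a, a tRNA uridine methyltransferase, lay higher in PTC2+ cells, with 109 and 118 NRPKM, against 84.3 and 71.6 NRPKM in PTC2- cells. Nsun3, which methylates a mitochondrial tRNA, had 33.3 and 38.2 NRPKM in PTC2+, against 25.0 and 11.6 NRPKM in PTC2- libraries, a log2 difference of 1.02 (SE 0.38) that was 0.50 without PTC2- replicate 2 and 1.55 without PTC2- replicate 1.

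The lowest p of the list belonged to Igf2bp2, a fetal RNA-binding protein that stabilises messages. It reached 119 and 113 NRPKM in the PTC2+ libraries, against 185 and 185 NRPKM in the PTC2- libraries. Replicates lay close together, and the log2 difference was -0.67 (SE 0.13, limma adjusted p = 0.0699 over all rows and 0.0355 within the stretches, where 11.1% of rows were called, 9.14% higher and 1.97% lower), so its call depends on which rows the adjustment covers. Rrn3, which starts ribosomal RNA transcription by polymerase I, had 64.9 and 46.6 NRPKM in PTC2+, against 104 and 72.5 NRPKM in PTC2- libraries. Among the 24 other tested genes, 2 had an unadjusted p under 0.05 (Yars2, a mitochondrial tyrosyl-tRNA synthetase, and Mrpl49, both lower in PTC2+ cells). Son, a large splicing cofactor, averaged 267 NRPKM in PTC2+ and 315 NRPKM in PTC2- cells, and Rpl35a, of the large ribosomal subunit, 574 NRPKM in PTC2+ and 675 NRPKM in PTC2- cells, neither of which passed.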

How the data were processed

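The deposited values are NRPKM, a normalized RPKM per the file headers, which the authors scaled by a formula that the sources used here do not give. The submitters' processing notes name Cufflinks 2.0.0, TopHat and TopHat2 2.0.5 beside mm9, and the tool that counted reads is not stated. Per the labels' protocols RNA was amplified to double-stranded cDNA (NuGEN Ovation) and made into Nextera XT libraries. Depth is unknown, so no count model and no counting interval was used.

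Values were tested as log2(NRPKM + 1), which understates the change of low genes, with limma 3.58.1 (R 4.3.3; eBayes with a mean-variance trend) on the 11807 rows that reached 1 NRPKM in 2 or more libraries. All 30 genes passed this filter. P-values were adjusted by Benjamini-Hochberg over these rows with a threshold of 0.05. Intervals are limma's 95% intervals of single genes, not adjusted for their number. The fit was tested on simulated data.

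The 30 genes, the further list of 31 (28 matched by symbol, 3 by synonym), the markers and the stretches were chosen with earlier results of these data known. All 30 genes were named, and of the further list those past the threshold, filled up to 4 a direction by size among those with unadjusted p under 0.05 and no overlap. Neighbours, shared 50-base words and exon overlaps came from RefSeq and GENCODE M21 on GRCm38. Alternatives were another pseudocount, filter, scaling, trend setting or adjustment, a replicate block and each library left out.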

Additional observations from a re-analysis of the deposited data

How the results depend on the processing

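Under all 13 alternatives, which were planned, 0 of the 30 genes changed, with adjusted p no lower than 0.0726. At an unadjusted p under 0.05 limma gave 5 of them, 0 without the mean-variance trend and 6 with quantile normalization. Over the 11807 rows tested the counts in these settings were 2335, 2219 and 2383. Of 390 alternative values of the 30 genes, 378 kept their direction and their side of the threshold and 12 reversed, in 6 genes that lay near 0 or varied between replicates. With quantile normalization these were Xab2 (0.011), Upf3a (0.030) and Eif4g1 (0.12). With 1 library left out, Polr2h ranged from -0.33 to 0.0061, Eaf2 from -0.030 to 0.75, Xab2 from -0.13 to 0.019, Pcid2 from -0.64 to 0.18, Upf3a from -0.19 to 0.18 and Eif4g1 from -0.13 to 0.071. The median log2 difference of the 30 genes (-0.14) was -0.055 with quantile normalization and ranged from -0.13 to -0.034 with 1 library left out. The further list (0 changed) had 1 changed gene, Igf2bp2, with p adjusted within the stretches. Of all rows 345 changed, against 214 for a pseudocount of 0.1, 2 without a filter (2461 had an unadjusted p below 0.05), 200 without a trend, 79 in the stretches alone, where fewer rows were tested, and 0 to 42 with 1 library left out, where the lone library is taken to vary like the other population. The 79 rows called in the stretches alone compare with 44 stretch rows called when p was adjusted over all rows. The cause of these shifts in count was not tested for any setting.

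A replicate block gave 332 changed rows, and 0 of the 30 genes changed (lowest limma adjusted p 0.0867). An unadjusted p under 0.05 was reached by 10 of the 30 genes and by 2436 of the 11807 rows tested. Deviations of same-numbered libraries correlated at 0.0229 over all rows tested and 0.0917 over stretch rows, and the labels do not say that a number pairs libraries. The sequencing depth behind each value is unknown, and 2 libraries a population limit what could be detected.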
